A study of Homo sapiens with 6 samples.

Results

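The MYC, MAX and MXD network is a family of basic helix-loop-helix leucine zipper transcription factors that act as dimers. Its members here were the genes named Myc, Mycl, Max, Mxd1, Mxd3, Mxd4, Mxi1, Mnt, Mlx and Mga, found by an exact match of the gene name in the deposited tables. All 10 were found, each on a single identifier, out of 53492 genes. The study sequenced polyadenylated RNA of 6 libraries. The labels give SH-SY5Y neuroblastoma cells transfected with pCS2-eGFP-N, an expression vector for green fluorescent protein (the GFP group, 3 libraries), or with pCS2-eGFP-CCNB1IP1, which joins that protein to CCNB1IP1, an E3 ubiquitin ligase (the GFP-CCNB1IP1 group, 3 libraries). The labels give neither the time after transfection nor the share of cells transfected, and they do not say whether replicates were separate cultures, so the p-values here measure only the spread between these libraries, which may be technical. All values are FPKM, fragments scaled by transcript length and library size, and each log2 ratio below is the fold change of FPKM + 1 on the log2 scale, GFP-CCNB1IP1 over GFP.

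MYC proteins bind DNA as dimers with MAX and activate genes of growth, ribosome production and nucleotide synthesis. The MXD proteins, MXI1 and MNT compete for MAX at the same sites and recruit SIN3 and histone deacetylases, which repress. MGA pairs with MAX in a Polycomb-type complex, and MLX is a MAX-like protein that pairs with some MXD proteins, with MNT and with the glucose-sensing Mondo factors. In neuroblastoma the network is best known through MYCN, which is amplified in many aggressive tumours, while lines without that amplification often express MYC instead.

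The libraries carried mouse identifiers for all 53492 genes although the labels name a human line, so every value here is listed under a mouse gene. Whether the cells were of mouse or human origin was not tested. Levels compared between genes below are therefore those of the values as deposited. Mouse Ccnb1ip1 lay between 7.4e-08 and 0.191 FPKM in the 6 libraries, and the introduced sequence was not analysed here, so the labels were not checked by it. The tables give no read totals. Depth relative to the GFP mean, read from the deposited confidence intervals of 2242 genes, was 0.950 to 1.058 in the GFP libraries and 0.989, 0.743 and 1.043 in GFP-CCNB1IP1 replicates 1 to 3. Of 12 sympathoadrenal markers, 10 were at 1 FPKM or more in every library, Hand2 among them. Their summed level was 895 to 989 FPKM with GFP alone, against 746 to 836 FPKM with GFP-CCNB1IP1; Chgb, a secretory granule gene, made up the largest part. Marker sums of fibroblasts, epithelium, glia and endothelium were low. Fibroblast markers (6 genes) came to 1.73 to 3.38 and 2.24 to 3.11 FPKM in the GFP and GFP-CCNB1IP1 libraries, with Lum at 0. Epithelial markers (6 genes) came to 0.210 to 0.426 and 0.10 to 0.235 FPKM, with Epcam, Krt18 and Krt5 at 0. Markers of Schwann cells and glia (6 genes) came to 3.49 to 3.99 and 4.49 to 4.68 FPKM. Among them Erbb3 (mean 2.9 FPKM) was at 1 FPKM or more in every library. Endothelial markers (6 genes) came to 5.17 to 6.12 and 5.01 to 5.83 FPKM. Kdr and Cldn5 were under 0.1 FPKM, while Vwf (mean 3.14 FPKM) and Pecam1 (1.93 FPKM) were at 1 FPKM or more in every library. Blood cell markers summed to at most 0.808 FPKM in the GFP libraries and reached 14.7 FPKM in GFP-CCNB1IP1 replicate 2, through Lyz2 at 11.1 FPKM. The part of any of these differences in the results below was not tested.

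None of the 10 network genes differed between the groups at an adjusted p under 0.05, in a fit of limma to log2(FPKM + 1) across 13231 genes; 0.00756% of all genes tested did. Mxd3 and Mxd1, which encode repressor partners of MAX, were lower in all 3 GFP-CCNB1IP1 libraries than in any GFP library, to 0.788 and 0.745 times the GFP mean. Both had an unadjusted p under 0.05, a threshold that 5.77% of all genes tested met in that direction. The groups overlapped for the other 8 genes, Myc and Max among them, whose group means were within 2% of each other. Across all genes tested, 8.9% had groups that did not overlap with GFP-CCNB1IP1 lower. Over the 10 genes the median log2 ratio was -0.005, with 5 higher and 5 lower. Over all genes tested the median was 0.004, with 51.4% higher and 48.6% lower.

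**Figure D1:**
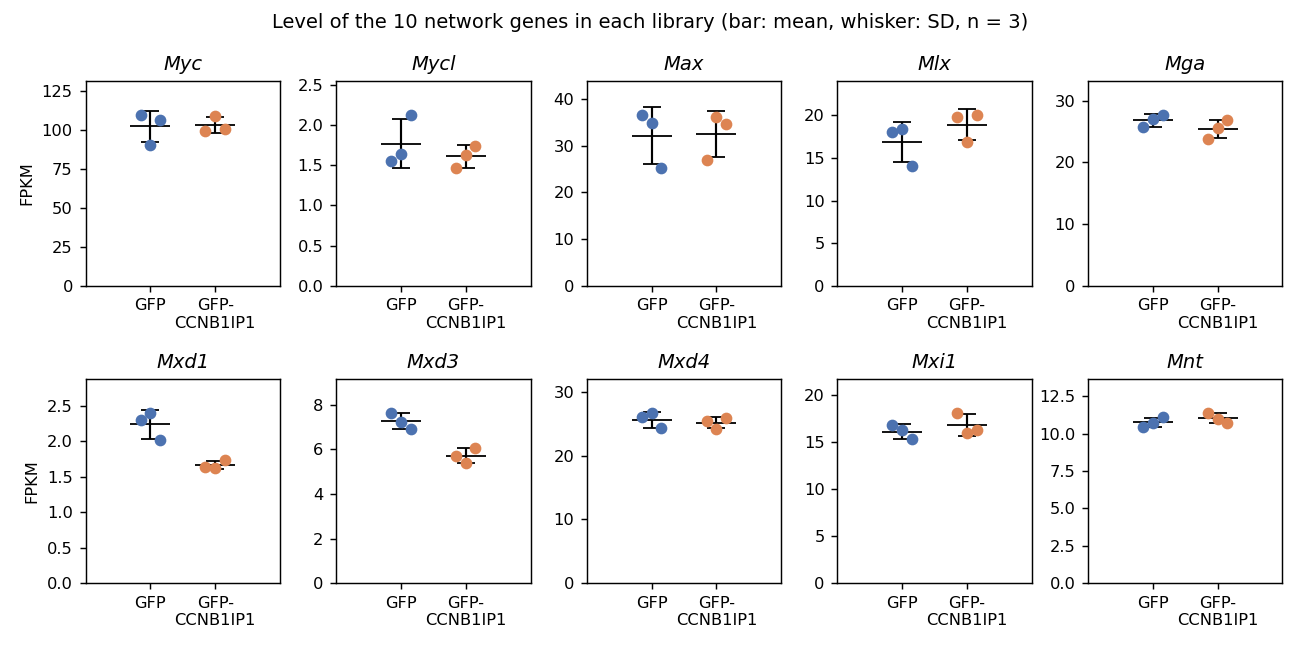
Level of each of the 10 network genes in FPKM (vertical axes, linear and starting at 0) in the 3 GFP and the 3 GFP-CCNB1IP1 libraries; points are libraries, in the order of replicates 1 to 3, bars are group means and whiskers are SD. Mxd1 and Mxd3 are the genes whose groups do not overlap, and Myc is the highest of the 10, at 90.6 to 109.6 FPKM.

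Myc, the gene of the activating partner of MAX, lies on chromosome 15 from 61857240 to 61862223 (ENSMUSG00000022346.18; the genome build is not given in the sources used here). It had 109.6, 90.6 and 106.7 FPKM in GFP replicates 1 to 3, and 99.3, 109.2 and 100.9 FPKM in GFP-CCNB1IP1 replicates 1 to 3. GFP replicate 2 was the lowest library, and the GFP range enclosed the whole GFP-CCNB1IP1 range. The group means were 102.3 ± 10.3 and 103.1 ± 5.32 FPKM (SD, n = 3), a log2 ratio of 0.02 with a 95% interval from -0.17 to 0.20 (limma, adjusted p = 0.966). On the FPKM + 1 scale that interval runs from 0.892 to 1.15 times the GFP value. The sign turned when GFP replicate 2 was left out (-0.07) or GFP-CCNB1IP1 replicate 2 (-0.03). By mean FPKM, 95.7% of the genes tested were at or below the level of Myc. Mycs, an intronless relative of Myc, was listed at 0 in all 6 libraries.

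Mycl, which encodes the L-MYC protein of the same family, lies on chromosome 4 from 122889445 to 122896278 and was the lowest of the 10 genes. It had 1.55, 1.64 and 2.12 FPKM with GFP alone, against 1.46, 1.63 and 1.74 FPKM with GFP-CCNB1IP1. GFP replicate 3 stood highest and the groups overlapped. The log2 ratio was -0.08 (SE 0.12, adjusted p = 0.842), and without GFP replicate 3 it was 0.01. Mycn, the N-MYC gene, lay between the pair, at 6.65, 7.26 and 5.78 FPKM with GFP alone, against 6.04, 6.32 and 6.20 FPKM with GFP-CCNB1IP1. Its groups overlapped as well, with a log2 ratio of -0.07 (SE 0.09, adjusted p = 0.815). Per transcript length, Myc was thus the highest and Mycl the lowest of Myc, Mycn and Mycl in each of the 6 libraries.

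Max, the shared partner of the MYC, MXD, MNT and MGA proteins, lies on chromosome 12 from 76984043 to 77008975. It had 36.6, 34.8 and 25.1 FPKM with GFP alone, against 27.0, 36.1 and 34.8 FPKM with GFP-CCNB1IP1. One library of each group, GFP replicate 3 and GFP-CCNB1IP1 replicate 1, was low, and the groups overlapped. The means were 32.2 ± 6.15 and 32.6 ± 4.93 FPKM, with a log2 ratio of 0.03 and a 95% interval from -0.33 to 0.39 (adjusted p = 0.971). The sign turned without GFP replicate 3 (-0.14), without GFP-CCNB1IP1 replicate 2 (-0.05) and without GFP-CCNB1IP1 replicate 3 (-0.02). That interval was the widest of the 10. The predicted gene Gm47218, which lies within Max, had 0.403 to 1.25 FPKM.

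The deposited values of Max were also the least certain for their level. The upper bound of its deposited confidence interval lay on average 32.7% above the FPKM, against a median of 8.22% among 2351 genes within 1.5 times its level. Its coefficient of variation within groups was 17.2%, against a median of 5.89% in those genes. Both measures were above those of 98% of genes of like level. For Myc the bound was 4.23% above the FPKM and the coefficient of variation 7.97%, against medians of 5.61% and 4.92% at its level.

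**Figure D2:**
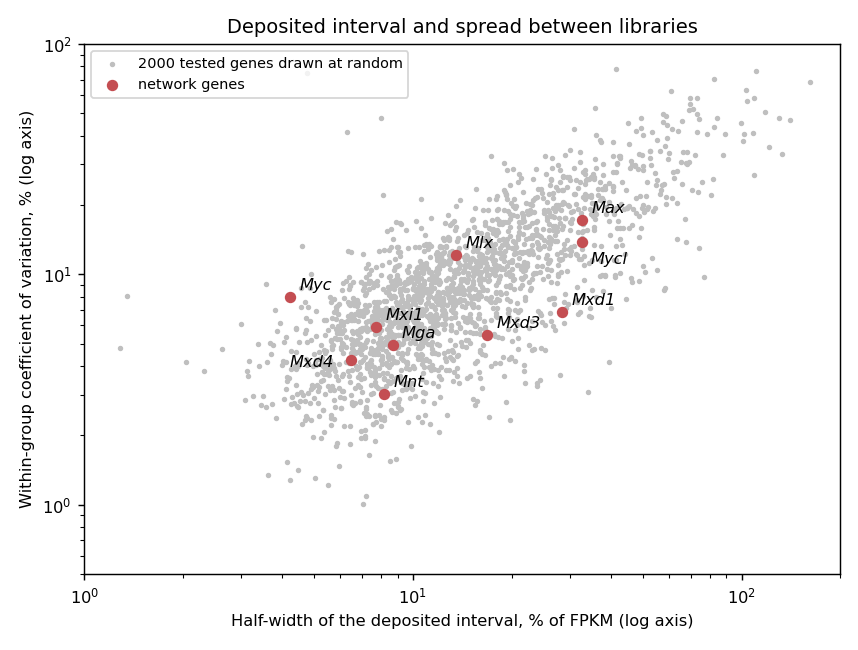
Half-width of the deposited confidence interval in percent of the FPKM (horizontal, log axis) against the coefficient of variation within groups in percent (vertical, log axis) for the 10 network genes (red) and 2000 tested genes drawn at random (grey). Max lies at 32.7% and 17.2%, beside the low-level gene Mycl, although its mean was 32.4 FPKM.

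Mlx, which encodes the MAX-like partner, lies on chromosome 11 from 100978103 to 100983033. It had 18.1, 18.4 and 14.1 FPKM with GFP alone, against 19.9, 16.8 and 20.0 FPKM with GFP-CCNB1IP1. GFP replicate 3 was low, as it was for Max, and GFP-CCNB1IP1 replicate 2 lay within the GFP range. The log2 ratio of 0.16 was the highest of the 10 (SE 0.11, 95% interval -0.10 to 0.42, adjusted p = 0.637), and it was 0.04 without GFP replicate 3. Mlx shares 385 bases with its neighbour Psmc3ip, at 6.75 to 9.52 FPKM. Psmc3ip was lower in each GFP-CCNB1IP1 library than in any GFP library. Its log2 ratio was -0.25 (SE 0.08, limma, unadjusted p = 0.0153, adjusted p = 0.323), opposite in sign to that of Mlx. Whether the counting used strand is not given in the sources used here, and the part of this overlap was not tested.

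Among the repressor partners, Mxd3 had the smallest p-value of the network. It lies on chromosome 13 from 55472981 to 55477636 (ENSMUSG00000021485.15), and its protein is known from cells in S phase and from progenitors, unlike the MXD proteins of differentiating cells. It had 7.63, 7.24 and 6.89 FPKM with GFP alone, against 5.70, 5.39 and 6.05 FPKM with GFP-CCNB1IP1. Each GFP-CCNB1IP1 library was below the lowest GFP library. In bulk RNA, fewer cells that express a gene and less of its RNA per cell cannot be told apart. The means were 7.25 ± 0.367 and 5.71 ± 0.333 FPKM, a log2 ratio of -0.30 (SE 0.08, 95% interval -0.48 to -0.12, unadjusted p = 0.00528, adjusted p = 0.272). It was lower, with an unadjusted p under 0.05, under all 16 alternative settings, with adjusted p from 0.251 to 0.457. By p-value it stood within the first 1.93% of the genes tested. Mxd3 shares 105 bases at one end with Prelid1, which encodes a mitochondrial protein and had 73.6 to 91.7 FPKM. The log2 ratio of Prelid1 was 0.07 (SE 0.08, limma, adjusted p = 0.751).

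Mxd1, the gene of the founding MXD repressor, known to be induced as cells differentiate, lies on chromosome 6 from 86624024 to 86646143 (ENSMUSG00000001156.10). It had 2.31, 2.40 and 2.02 FPKM with GFP alone, against 1.64, 1.63 and 1.74 FPKM with GFP-CCNB1IP1. The groups did not overlap, and the GFP-CCNB1IP1 libraries lay close together. The means were 2.24 ± 0.202 and 1.67 ± 0.060 FPKM, a log2 ratio of -0.28 (SE 0.10, 95% interval -0.52 to -0.03, unadjusted p = 0.030, adjusted p = 0.387). At so low a level the FPKM + 1 scale understates the change: with a pseudocount of 0.1 the log2 ratio was -0.40, and with one of 5 it was -0.12. The unadjusted p was 0.0514 to 0.084 when any library but GFP replicate 3 was left out. The deposited interval reached on average 28.5% above the FPKM of a single library.

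The other repressor genes were more abundant and had overlapping groups. Mxd4 (chromosome 5, 34331227 to 34345064), a MAX partner found in many differentiated tissues, had 26.0, 26.7 and 24.2 FPKM with GFP alone, against 25.4, 24.2 and 25.9 FPKM with GFP-CCNB1IP1. Its log2 ratio was -0.03, with a 95% interval from -0.16 to 0.11 (adjusted p = 0.903), the narrowest interval of the network. Mxi1 (chromosome 19, 53298949 to 53364241), which encodes the repressor also called MXD2, had 16.8, 16.3 and 15.3 FPKM with GFP alone, against 18.1, 16.0 and 16.4 FPKM with GFP-CCNB1IP1. Its log2 ratio was 0.06 (SE 0.07, adjusted p = 0.808), with GFP-CCNB1IP1 replicate 1 highest. Mxi1 spans 2 predicted genes, of which Gm10197 was close to 0 in the 3 GFP libraries and in GFP-CCNB1IP1 replicate 2. In GFP-CCNB1IP1 replicates 1 and 3 Gm10197 had 11.7 and 7.77 FPKM. Its part in the Mxi1 values was not tested.

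Mnt (chromosome 11, 74721746 to 74736551), the broadly expressed repressor that pairs with MAX or MLX, had 10.5, 10.7 and 11.1 FPKM with GFP alone, against 11.4, 11.0 and 10.7 FPKM with GFP-CCNB1IP1. It varied least of all 10 within groups, by 3.02%, and its log2 ratio was 0.03 (95% interval -0.11 to 0.18, adjusted p = 0.872). Mga (chromosome 2, 119727709 to 119800062), the large scaffold that joins MAX to a Polycomb-type complex, had 25.7, 27.0 and 27.6 FPKM with GFP alone, against 23.8, 25.5 and 26.8 FPKM with GFP-CCNB1IP1. GFP-CCNB1IP1 replicate 1 was lowest and the groups overlapped. Its log2 ratio was -0.08 (95% interval -0.22 to 0.07, adjusted p = 0.690).

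**Figure D3:**
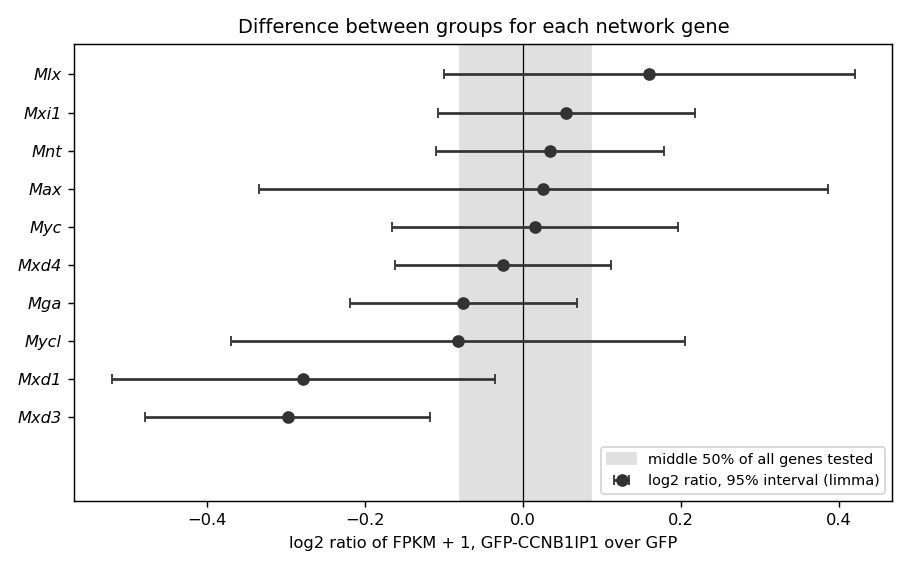
Log2 ratio of FPKM + 1, GFP-CCNB1IP1 over GFP (horizontal axis), for each network gene, with its 95% interval from limma; the grey band holds the middle 50% of all 13231 genes tested. The intervals of Mxd3 and Mxd1 lie below 0 before adjustment and the other 8 include 0; Max has the widest.

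By mean FPKM over the 6 libraries the order of the members ran Myc (102.7 ± 7.32, SD), Max (32.4 ± 4.99), Mga (26.1 ± 1.37), Mxd4 (25.4 ± 1.00), Mlx (17.9 ± 2.20), Mxi1 (16.5 ± 0.955), Mnt (10.9 ± 0.333), Mxd3 (6.48 ± 0.899), Mxd1 (1.96 ± 0.340) and Mycl (1.69 ± 0.232). The ranges of Max and Mga, of Mga and Mxd4, of Mlx and Mxi1 and of Mxd1 and Mycl overlapped. Compared within each library, Max was above Mga, Mlx above Mxi1 and Mxd1 above Mycl in 5 of the 6 libraries. Mga was above Mxd4 in 4 of the 6. The ranges of the other 5 neighbouring pairs did not overlap. Which protein dimers formed was not measured.

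Myc made up 38.4 to 45.4% of the summed FPKM of the 10 genes in the GFP libraries and 41.2 to 44.1% in the GFP-CCNB1IP1 libraries. The sum itself was 241.9 ± 11.0 and 242.0 ± 7.32 FPKM (n = 3 each). The repressor genes Mxd1, Mxd3, Mxd4, Mxi1 and Mnt together came to 0.576, 0.699 and 0.558 times the Myc level in the GFP libraries and to 0.627, 0.532 and 0.602 times in the GFP-CCNB1IP1 libraries. These ratios overlapped between the groups. Transcripts of Myc exceeded those of Max 2.60 to 4.25 times in the GFP and 2.90 to 3.68 times in the GFP-CCNB1IP1 libraries, with the highest ratio in GFP replicate 3, where Max was lowest.

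Within the repressor sum the make-up differed slightly between the groups. Mxd4 and Mxi1 together gave 67.7, 67.9 and 66.4% of it in the GFP libraries and 69.9, 69.0 and 69.5% in the GFP-CCNB1IP1 libraries. Mxd1 and Mxd3 together had 9.94, 9.64 and 8.91 FPKM with GFP alone, against 7.35, 7.02 and 7.79 FPKM with GFP-CCNB1IP1. Neither quantity overlapped between the groups. Both restate the values of Mxd3 and Mxd1 above and were given no test. The sum of the 5 repressor genes was 62.0 ± 2.14 and 60.4 ± 2.09 FPKM, and there the groups overlapped.

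The genes whose pattern over the 6 libraries was most like that of Myc, among 6954 genes with a mean of at least 10 FPKM, were Adnp (Pearson r = 0.98, Spearman rho = 1.0), Ylpm1 (r = 0.97, rho = 0.83) and Nbea (r = 0.97, rho = 0.94). For Max they were Dhrs7 (r = 0.99, rho = 0.66), Sp3 (r = 0.94, rho = 0.60) and Tacc1 (r = 0.94, rho = 0.54). These are the top values out of many genes over 6 libraries that share depth and scaling. Max itself had 2 low and 4 high libraries, and the part of this split in its lower rank correlations was not tested.

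Genes that work with the network were read from lists, and none of their members passed the test over all genes. Of 16 cofactors through which MYC activates transcription, 6 were higher and 10 lower, with a median log2 ratio of -0.03. An unadjusted p under 0.05 in limma was reached by 0 of them (5.59% higher and 5.77% lower of all genes tested). Trrap, the scaffold of the histone acetyltransferase complexes that MYC recruits, had 52.9 ± 2.65 FPKM with GFP alone, against 50.6 ± 2.27 FPKM with GFP-CCNB1IP1. The acetyltransferase genes Kat5 (14.6 ± 2.66 and 17.4 ± 1.61 FPKM) and Kat2a (43.3 ± 1.70 and 40.0 ± 0.698 FPKM) lay on opposite sides of 0, with log2 ratios of 0.25 and -0.11 and adjusted p of 0.501 and 0.456. The helicase gene Ruvbl2 had -0.09 and the chromatin remodeller gene Bptf -0.10 on the same log2 scale.

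Of 14 genes of the SIN3 and histone deacetylase corepressors, which the MXD proteins and MNT recruit, 7 were higher and 7 lower, with a median log2 ratio of 0.01. An unadjusted p under 0.05 was reached by 2 lower genes and by 0 higher, where 5.77% and 5.59% of all genes tested met that threshold. Sin3a, the scaffold bound by MXD proteins, had 22.7, 24.1 and 25.0 FPKM with GFP alone, against 20.2, 22.3 and 18.9 FPKM with GFP-CCNB1IP1. Its groups did not overlap, with a log2 ratio of -0.21 (SE 0.07, limma, adjusted p = 0.349). Its paralog Sin3b, chosen for comparison after its values were seen, had a log2 ratio of 0.11 (SE 0.08). Hdac3, a histone deacetylase gene, had 27.2 ± 1.08 and 24.7 ± 0.601 FPKM (adjusted p = 0.414). Rbbp7, a histone-binding subunit gene, had a log2 ratio of -0.07.

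In the complex that holds MGA and MAX, a form of Polycomb repressive complex 1, 4 of 12 genes were higher and 8 lower, with a median log2 ratio of -0.06. Among them 1 higher and 2 lower genes had an unadjusted p under 0.05, a threshold that 5.59% and 5.77% of all genes tested passed in those directions. E2f6, its E2F subunit, had 11.9 ± 0.679 and 11.4 ± 0.789 FPKM. Tfdp1, the E2F dimer partner, had 79.2 ± 1.80 FPKM with GFP alone, against 69.9 ± 4.70 FPKM with GFP-CCNB1IP1, and its groups did not overlap (log2 ratio -0.18, adjusted p = 0.323). The catalytic subunit gene Rnf2 was on the other side, at 26.8, 27.4 and 30.4 FPKM with GFP alone, against 33.6, 31.1 and 33.8 FPKM with GFP-CCNB1IP1 (log2 ratio 0.22, adjusted p = 0.317). The histone methyltransferase genes Ehmt1 and Ehmt2 had log2 ratios of -0.18 and -0.13 (adjusted p = 0.400 and 0.521).

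The list of genes that set MYC protein stability held the gene with the smallest p-value of all lists here. Cip2a, which encodes an inhibitor of the phosphatase that destabilises MYC, had 7.90, 8.50 and 6.87 FPKM with GFP alone, against 5.07, 3.80 and 4.98 FPKM with GFP-CCNB1IP1. Every GFP-CCNB1IP1 library was below every GFP library, at 0.595 times the GFP mean (log2 ratio -0.64, SE 0.12, unadjusted p = 0.00066, limma, adjusted p = 0.176). Plk1, a mitotic kinase gene, had 8.47 ± 1.81 and 5.84 ± 1.27 FPKM with overlapping groups (adjusted p = 0.378). Fbxw7, the ubiquitin ligase subunit that recognises phosphorylated MYC, had 5.44 ± 0.362 and 5.28 ± 0.375 FPKM. Gsk3b, the kinase that marks MYC for it, had 31.9 ± 0.843 and 34.5 ± 0.496 FPKM (adjusted p = 0.435), and Stub1, a chaperone-linked ligase, had 51.9 ± 0.943 and 48.5 ± 0.849 FPKM (adjusted p = 0.479). Of the 17 genes, 6 were higher and 11 lower, with a median log2 ratio of -0.04, and 1 higher and 2 lower genes had an unadjusted p under 0.05 (5.59% and 5.77% of all genes tested).

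Targets of MYC were described with 54 genes, of which 53 passed the filter of a mean of at least 1 FPKM. They split evenly, with 26 higher and 27 lower and a median log2 ratio of -0.01, against 0.004 over all genes tested. An unadjusted p under 0.05 was reached by 2 higher and 2 lower genes (5.59% and 5.77% of all genes tested). Odc1, the ornithine decarboxylase gene of polyamine synthesis and a classical MYC target, had 150.9, 152.0 and 155.3 FPKM with GFP alone, against 178.3, 163.4 and 178.3 FPKM with GFP-CCNB1IP1. Its groups did not overlap (log2 ratio 0.18, SE 0.05, limma, adjusted p = 0.275). Polr1c, a subunit gene of RNA polymerases I and III, had 35.7, 32.6 and 34.8 FPKM with GFP alone, against 41.8, 37.4 and 39.7 FPKM with GFP-CCNB1IP1 (adjusted p = 0.318). Pa2g4, a growth regulator gene, had 79.8 ± 1.84 and 73.5 ± 3.54 FPKM (adjusted p = 0.433), and Hspe1, the mitochondrial co-chaperonin gene, had 216.9 ± 3.66 and 201.2 ± 8.44 FPKM (adjusted p = 0.428).

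Of 12 genes listed as repressed by MYC, several of them through its partner MIZ1, 9 passed the filter, and 7 of these were higher and 2 lower, with a median log2 ratio of 0.11. Of the 9, 2 higher and 0 lower genes had an unadjusted p under 0.05 in limma (5.59% and 5.77% of all genes tested), namely Gadd45a and Ndrg1. The network gene Mxd4 is also on this list and had an adjusted p of 0.903 in limma. Cdkn1a, the gene of the cell cycle inhibitor p21, had 36.8 ± 4.46 and 40.3 ± 3.86 FPKM with overlapping groups. Gadd45a, a growth arrest gene, had 43.8, 48.2 and 44.8 FPKM with GFP alone, against 60.1, 54.7 and 54.6 FPKM with GFP-CCNB1IP1 (log2 ratio 0.30, SE 0.06, limma, adjusted p = 0.196). Ndrg1, a differentiation and stress gene, had 6.85 ± 0.482 and 8.78 ± 1.11 FPKM (adjusted p = 0.322). Vamp4 and Itgb1 had log2 ratios of 0.11 and 0.06. Groups did not overlap, with GFP-CCNB1IP1 higher, for 5 of the 9 and with it lower for 0. Of all genes tested, 8.7% and 8.9% were so. In that order the counts were 5 and 6 of 53 MYC targets, 1 and 3 of 17 turnover genes and 2 and 2 of 12 genes of the MGA complex. They were 0 and 2 of 16 cofactors, 0 and 2 of 14 corepressors and 1 and 1 of 7 glucose response genes. Mycn and Mlxip gave 0 and 0. List counts were given no test.

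The MLX branch pairs MLX with the MONDO proteins in the response to glucose. Mlxip, which encodes the glucose sensor MondoA, had 8.26, 10.2 and 8.93 FPKM with GFP alone, against 10.9, 8.54 and 10.3 FPKM with GFP-CCNB1IP1, and Mlxipl stayed below the filter. Of 8 glucose response genes 7 passed it, 2 higher and 5 lower, with a median log2 ratio of -0.05. Of the 7, 0 had an unadjusted p under 0.05 in limma (5.59% higher and 5.77% lower of all genes tested). Txnip, the best known MondoA target, had 136.3, 207.0 and 140.1 FPKM with GFP alone, against 153.6, 134.8 and 131.3 FPKM with GFP-CCNB1IP1. GFP replicate 2 stood above the other 5 libraries (log2 ratio -0.18, SE 0.15, adjusted p = 0.699). The hexokinase gene Hk2 had 14.2 ± 0.419 and 15.6 ± 0.313 FPKM (adjusted p = 0.450), while Klf10 and the glucose transporter gene Slc2a1 had log2 ratios of -0.17 and 0.24.

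**Figure D4:**
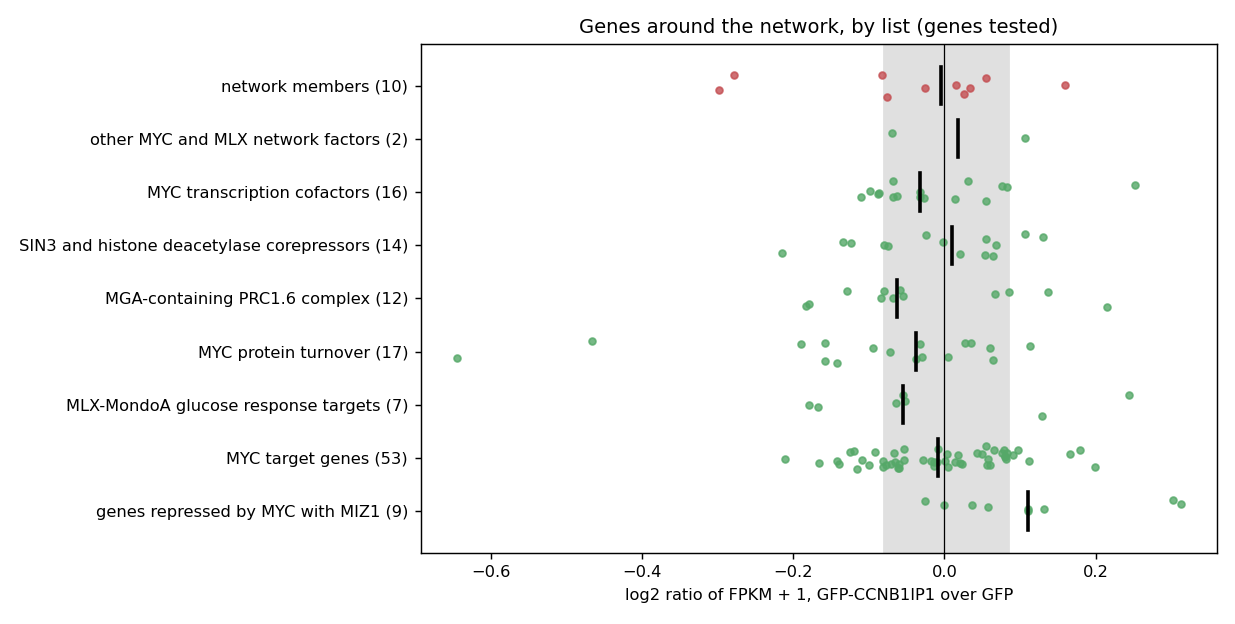
Log2 ratio of FPKM + 1, GFP-CCNB1IP1 over GFP (horizontal axis), for each gene that passed the filter, by list; the number of genes is in brackets, black bars are list medians and the grey band holds the middle 50% of all genes tested. MYC targets lie on both sides of 0 (26 higher, 27 lower), and Cip2a is the point farthest to the left, in the turnover list.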

How the data were processed

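Each deposited table holds the FPKM of every gene in 1 library, with the bounds of its confidence interval, per the file headers. The submitters' processing notes name HISAT2 and Cufflinks, with no version. Genome build, annotation and use of strand are not stated there. Chromosomes and positions come from the tables, whose starts were taken to count from 0 and are printed counting from 1. Summing rows that share an identifier (38 identifiers) left 53492 genes.

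The FPKM were used as deposited. Genes averaging at least 1 FPKM over the 6 libraries (13231) were tested on log2(FPKM + 1) in R 4.3.3 by limma 3.58.1, using its mean-variance trend and no block, and Benjamini-Hochberg adjustment covered all 13231; a call needs an adjusted p under 0.05. All 10 network genes passed the filter. Fold changes understate the change of low genes. With 3 libraries against 3, an exact two-sided permutation p is at least 0.1, so none was used. The test was also run on simulated data. The planted changes there were larger than those of Mxd3 and Mxd1, and none was in a gene as low as Mxd1 or Mycl. That run therefore does not bear on changes of the size seen here.

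The network genes and the lists were chosen with earlier results of these data known. Named genes are all 10 members and, from each list, its first gene and up to 4 with the smallest p; for likeness, the 3 genes with the highest Pearson correlation with Myc and with Max, on log2(FPKM + 1). Mycs, Prelid1, Psmc3ip, Gm10197, Ccnb1ip1, Chgb, Lyz2 and Sin3b were added after values were seen. Some list genes and markers that these rules take are not reported here.

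Fragment totals are not known; relative depth came from the deposited intervals, with the gap from FPKM to upper bound taken as 2 standard errors, over genes with 5 to 50 implied fragments. Alternatives were pseudocounts of 0.1 and 5, no filter, a mean of at least 5 FPKM, 3 other scalings (median of ratios, quantile, TPM), a replicate block, 2 other variance models and each library left out in turn.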

Additional observations from a re-analysis of the deposited data

How the results depend on the processing

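The 10 network genes gave 158 values under the 16 alternatives. Of these, 150 kept the sign, and 0 reached an adjusted p under 0.05 in limma (smallest 0.251, Mxd3). The changed filters, the replicate block and the 2 other variance models leave the log2 ratio of a gene unchanged. Under those settings no sign could turn, so they add nothing to the count of kept signs. The 8 with another sign all came from leaving out a library: over those 6 fits the log2 fold change ran from -0.069 to 0.067 for Myc, -0.14 to 0.0071 for Mycl, -0.14 to 0.15 for Max and -0.063 to 0.0034 for Mxd4. Mxd3 ran from -0.33 to -0.26 and Mxd1 from -0.33 to -0.24. Over all genes, 1 was called higher in the reported fit, and 0 with a pseudocount of 5, with no filter, with the replicate block and without the trend (738, 1064, 687 and 693 genes higher at an unadjusted p under 0.05); leaving out single libraries gave 0 to 2 higher and 0 to 2 lower. No network gene was among them.

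Same-numbered libraries of the groups did not deviate together (correlations across genes 0.023, -0.009 and -0.011), so the numbers were not taken to pair them. With the replicate block Mxd3 had an adjusted p of 0.394 and Mxd1 an unadjusted p of 0.0631.

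Of 128 list medians 121 moved by less than the spread between libraries. Under the replicate block and the 2 other variance models these medians could not move, as the log2 ratios stay the same. With libraries left out the medians ran from -0.054 to -0.020 for MYC cofactors, -0.081 to -0.037 for MYC protein turnover and 0.063 to 0.130 for genes repressed with MIZ1, which had 0.056 with a pseudocount of 5; the cause was not tested. Mxd1 and Mycl fall below a filter of 5 FPKM, and their deposited intervals, which reach 28.5 and 32.6% above the values, limit what can be read from them, as does the 32.7% of Max. Depth was lowest in GFP-CCNB1IP1 replicate 2.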
